A study of Mus musculus with 4 samples.

Results

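The nuclear genes for the subunits of the 5 oxidative phosphorylation complexes were followed in mouse kidney ureteric buds after angiotensin II (AngII). Genes were chosen by symbol: those beginning Ndufa, Ndufb, Ndufc, Ndufs or Ndufv (complex I), the 4 Sdh subunit genes (complex II), and those beginning Uqcr (complex III), Cox4 to Cox8 (complex IV) and Atp5 (complex V). RefSeq lists 115 such symbols, of which 19 are pseudogenes. Probes were matched to 90 of them, and 84 passed the filter on dim probes and were tested, among 14995 features tested in all. The other 25 symbols, the 19 pseudogenes and Ndufa4l2, Ndufa11, Ndufaf8, Ndufb1, Ndufb4b and Ndufb4c, were not analysed here. The symbol rule also takes in the Ndufaf genes, which encode complex I assembly factors and are described apart from the subunits.

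Ureteric buds are the epithelial outgrowths that branch into the collecting ducts and ureter. The labels describe intact buds in matrix gel, fed with medium that held 10% serum and the growth factors GDNF and HGF (each at 100 ng/ml). One group was exposed to AngII at 1e-05 M for 6 h and the control group to media alone, with the same gel, serum and growth factors in both. The sources used here name no strain, genotype or age. The labels number 2 AngII and 2 media RNAs (300 ng of total RNA a sample) and call them biological replicates. They name no separate animals or cultures. The RNAs of a number shared 2 two-colour arrays of exchanged dyes: AngII was in Cy5 on 1 and in Cy3 on the other, which makes 4 arrays. All ratios below are log2 of AngII over media.

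Oxidative phosphorylation is the route by which mitochondria turn the electrons of NADH and succinate into ATP. Complexes I and II pass electrons to coenzyme Q, complex III passes them to cytochrome c, complex IV to oxygen, and complex V, the ATP synthase, uses the proton gradient that complexes I, III and IV build. Most subunits are encoded in the nucleus, a few in the mitochondrial genome, and many nuclear promoters of the set are known targets of NRF1 and of ETS-family factors such as GABP, with PGC-1 proteins as coactivators.

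The promoters of 4 genes are given because these genes carry the widest changes described below: Ndufaf3, Ndufa8 and Ndufs3, the largest rises among assembly factors, accessory subunits and core subunits of complex I, and Atp5k, the largest fall of the set. Each is the 250 bases before the RefSeq start on GRCm38.p6, read 5′ to 3′ on the minus strand, with matches to the NRF1 core GCATGCGC or the ETS core CCGGAAG, on either strand, in capitals. They lie at chr9:108567437-108567686 (Ndufaf3), chr2:36049339-36049588 (Ndufa8), chr2:90904722-90904971 (Ndufs3) and chr5:108434400-108434649 (Atp5k), just upstream of the annotated gene.
Ndufaf3: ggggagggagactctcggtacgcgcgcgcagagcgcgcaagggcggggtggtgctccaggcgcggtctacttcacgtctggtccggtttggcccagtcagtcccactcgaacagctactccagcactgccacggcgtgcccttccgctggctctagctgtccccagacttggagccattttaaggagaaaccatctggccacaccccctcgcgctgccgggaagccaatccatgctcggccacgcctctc
Ndufa8: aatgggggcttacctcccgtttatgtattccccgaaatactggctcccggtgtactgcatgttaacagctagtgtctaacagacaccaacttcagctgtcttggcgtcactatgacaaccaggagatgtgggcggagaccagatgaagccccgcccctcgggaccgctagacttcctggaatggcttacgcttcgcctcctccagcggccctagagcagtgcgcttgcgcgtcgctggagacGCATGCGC
Ndufs3: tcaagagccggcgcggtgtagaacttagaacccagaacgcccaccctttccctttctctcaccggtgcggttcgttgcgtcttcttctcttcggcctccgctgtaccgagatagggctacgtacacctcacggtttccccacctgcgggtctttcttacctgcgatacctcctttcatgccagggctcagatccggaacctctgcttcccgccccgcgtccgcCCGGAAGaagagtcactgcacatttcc
Atp5k: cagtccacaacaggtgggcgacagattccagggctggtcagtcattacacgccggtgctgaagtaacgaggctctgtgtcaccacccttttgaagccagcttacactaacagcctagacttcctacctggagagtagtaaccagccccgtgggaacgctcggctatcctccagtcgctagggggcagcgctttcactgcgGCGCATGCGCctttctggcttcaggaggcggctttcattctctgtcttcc
The Ndufa8 window held 1 NRF1 match, the Ndufs3 window 1 ETS match, the Atp5k window 2 NRF1 matches that overlap on opposite strands, and the Ndufaf3 window neither core.

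RefSeq promoter windows were found for 70 of the 84 tested genes, 75 windows in all. Of these, 10.7% held the NRF1 core and 17.3% the ETS core, against 2.26% and 6.91% of the 32851 windows of the whole table, and the YY1 core AAGATGGC was in 1.33% against 1.56%. The NRF1 core was in 3 of 12 windows of genes that fell, 3 of 48 of genes that rose and 2 of 15 of genes that did not pass, and the ETS core in 3, 5 and 5 of them. A match is a run of letters and was not tested as a binding site.

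The whole data set bears on every value below. The ratios of the numbered replicates differed by no more than the array noise: over the 84 genes, half-differences between replicates had an SD of 0.03 log2 units, and array noise one of 0.04. No tested feature differed between the replicates in limma at an adjusted p under 0.05 (771 of 14995 at an unadjusted p under 0.05). The arrays were therefore read as 1 independent pair of RNAs. Unless another fit is named, each p-value and SE for AngII over media measures the spread between replicate averages, each taken over both dye orientations. The difference between orientations is left out of that spread, and the spread between buds is not measured. The effect of dye was large beside the array noise. Between arrays of opposite orientation, the ratios of the 84 genes correlated at r = 0.48, and between the numbered replicates at r = 0.97, both across genes, which are not independent replicates. The bud markers Krt8, Krt18, Epcam, Calb1 and Gata3 were above background, and Ret was not. Of 16 tested bud markers 8 were higher and 5 lower, where 39.1% and 38.1% of all features were, with a median of 0.08. Their summed signal was 208000 to 252000 with AngII and 227000 to 350000 with media. Of 8 endothelial markers 1 was higher and 6 lower, and of 9 nephron progenitor markers 3 were higher and 6 lower. Across 8 erythroid markers 7 passed as higher with AngII, where 39.1% of all features did, with a median ratio of 2.06. Their summed signal was 28900 to 43400 in the AngII channel against 5030 to 9310 in the media channel. The summed signal of the 8 leukocyte markers was 908 to 1220 with AngII and 837 to 1120 with media, and that of the 10 stromal markers 35400 to 67100 and 30700 to 47800. The part of these cells in the results below was not tested, and fewer cells of a type and less RNA per cell cannot be told apart in such pooled RNA.

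Genes of the set were more often higher than lower with AngII, by small amounts. In limma at a Benjamini-Hochberg adjusted p under 0.05, 53 of the 84 genes were higher, where 39.1% of all tested features were higher, and 16 were lower, where 38.1% of all features were lower. These counts are 63.1% and 19% of the set. The median ratio was 0.14, against 0.00 over all features. A change of at least 1.5-fold was reached upward by 5 of the 84 genes, a share near the 5.5% of all features. Downward it was reached by 1 gene, where 5.4% of all features did so. The 5 were the complex I subunits Ndufa8, Ndufv3 and Ndufs3 and the complex I assembly factors Ndufaf3 and Ndufaf7. The 1 was Atp5k of complex V. With AngII in Cy5 alone 11 genes reached this size upward and none downward, and with AngII in Cy3 alone 4 did so in each direction. It was 8 upward and 1 downward with Agilent's processed signals, and 3 and 1 with the probes of a gene averaged. On all 4 arrays, 39 genes were above 0 (31% of all features were) and 8 were below 0 (28.1% of all features were), and the other 37 changed sign between arrays.

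Most of the higher genes lay in complex I. Of its 36 subunits 31 passed as higher and 4 as lower, with a median ratio of 0.23. These are 86.1% and 11.1%, where 39.1% and 38.1% of all features were higher and lower. Complex II had 2 of 4 subunits higher and none lower, complex III 5 of 8 higher and 2 lower, complex IV 6 of 13 higher and 4 lower, and complex V 5 of 17 higher and 6 lower. The medians of these complexes were 0.15, 0.13, 0.05 and 0.02. Complexes IV (46.2% higher and 30.8% lower) and V (29.4% and 35.3%) lay nearer the shares of all features than complex I. The order of the complexes was not tested. The small median of complex V was -0.04 without replicate 2, and that of complex IV was 0.01 without replicate 1 and 0.12 without replicate 2. A fit of the 4 arrays with the replicate number as a block leaves dye orientation in the residual spread. In that fit 15 of the 84 genes were higher, a share near the 16.3% of all features. Another 5 of the 84 were lower, a smaller share than the 14.7% of all features. The 20 genes called in that fit kept their call under each other alternative in which they were tested (Cox6a2 did not pass the stricter filter on dim probes, and leaving out a replicate allows no test).

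**Figure D1:**
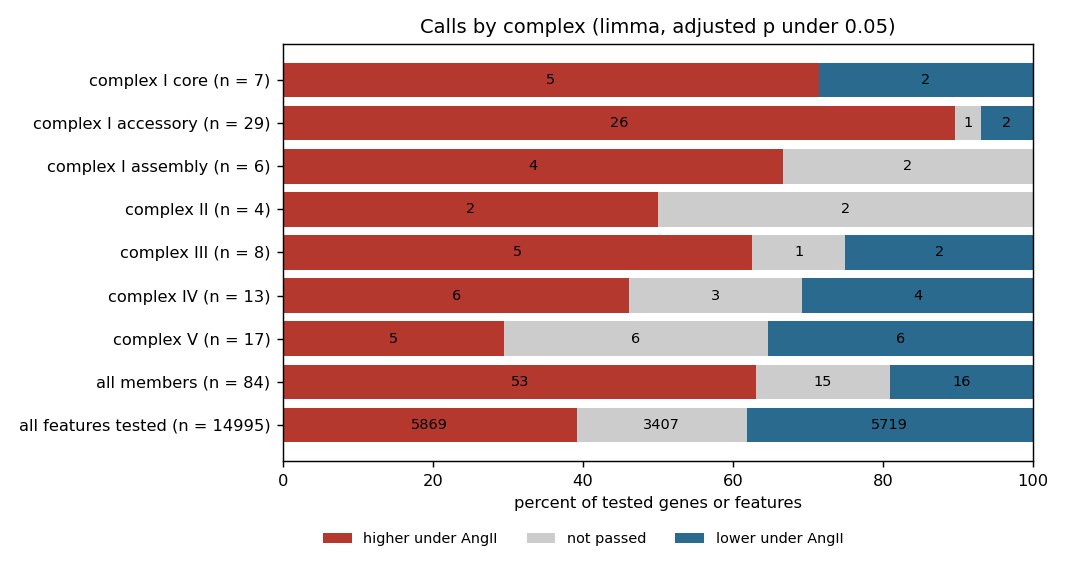
Share of tested genes called higher, not passed or lower with AngII in each complex, in the whole set and among all tested features (limma, adjusted p under 0.05, horizontal axis in percent, counts printed in the bars). Complex I accessory subunits had 26 of 29 genes higher, and complex V had 5 of 17 higher and 6 lower.

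The core subunits of complex I carry the flavin and the iron-sulfur clusters along which electrons travel. Ndufs3, of the quinone-reducing module, had ratios of 0.64 and 0.58 on the arrays with AngII in Cy5 and of 0.60 and 0.72 on those with AngII in Cy3 (mean 0.63 ± 0.03 SE, 1.55-fold, adjusted p = 9.7e-16 in limma). All 4 arrays lay close together, whichever dye held AngII. Ndufs8, an iron-sulfur subunit near the quinone site, had 0.29, 0.31, 0.32 and 0.52 in the same order (mean 0.36, adjusted p = 4.26e-10 in limma). Ndufv2, the small iron-sulfur subunit of the NADH-oxidising tip, had 0.44 and 0.36 with AngII in Cy5 but 0.16 and 0.10 with AngII in Cy3, for a mean of 0.26 (0.55 with Agilent's processed signals). Ndufs1, the largest iron-sulfur subunit, rose by less, with 0.17, 0.24, 0.23 and 0.15 and a mean of 0.20. Ndufs7, which holds the last cluster before quinone, was at 0.21 and 0.12 in Cy5 and at 0.01 on both Cy3 arrays (mean 0.09, adjusted p = 0.0254 in limma), so its call rested on the Cy5 arrays. The call was lost with Agilent's processed signals and in the authors' deposited table.

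Against these rises, Ndufv1, which binds NADH and the flavin, fell, with -0.21, -0.33, -0.27 and -0.32 (mean -0.29 ± 0.04 SE, adjusted p = 2.7e-08 in limma), below 0 on every array and with no difference between dye orientations that passed. Its partner at the tip, Ndufv2, rose, so these neighbours in the enzyme had opposite signs. The Ndufv2 probe was dim, with a mean log2 intensity of 6.88 where the median of all features was 8.42. Its call was lost with the replicate block.

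Accessory subunits surround the core and are needed to build and hold the enzyme. Of 29, 26 were higher, 2 lower and 1 not passed, with a median ratio of 0.23, and 20 were above 0 on all 4 arrays. Of all features 39.1% were higher, 38.1% lower and 31% above 0 on all 4 arrays. Ndufa8, on the intermembrane-space side, had 0.91 and 0.94 with AngII in Cy5 and 0.42 and 0.38 with AngII in Cy3 (mean 0.66 ± 0.03 SE, 1.58-fold, adjusted p = 3.22e-16 in limma). Ndufv3, a small subunit at the NADH-oxidising tip, was alike at 0.97 and 0.94 against 0.33 and 0.39 (mean 0.66, adjusted p = 3.88e-16 in limma). Both rose on every array and by more when AngII was in Cy5. The other probes of Ndufv3 gave means of 0.56 and 0.47, in the same direction as the brightest.

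Ndufa2, a subunit with a thioredoxin-like fold, had 0.66, 0.69, 0.46 and 0.45 (mean 0.56), and Ndufs4, whose loss destabilises the NADH-oxidising module, had 0.70, 0.68, 0.32 and 0.30 (mean 0.50). Ndufb3, of the membrane arm, had 0.59, 0.54, 0.34 and 0.37 (mean 0.46). These again rose on every array. Ndufa12, Ndufa9 and Ndufab1, the last of them the mitochondrial acyl carrier protein, had means of 0.42, 0.41 and 0.38, with the higher values on the Cy5 arrays. Ndufa13, also known as GRIM-19, went the other way by dye, at 0.20 on both Cy5 arrays and at 0.41 and 0.50 on the Cy3 arrays (mean 0.33). Ndufa4, a subunit now placed in complex IV, rose slightly, with 0.12, 0.25, 0.07 and 0.15 and a mean of 0.15.

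Ndufb9, Ndufb5, Ndufa6, Ndufb4, Ndufa10, Ndufs5, Ndufb7, Ndufa5, Ndufb10 and Ndufb8, further subunits of the 2 arms, were also above 0 on all 4 arrays, with means from 0.37 for Ndufa6 to 0.18 for Ndufb8. Ndufb9, of the membrane arm, had 0.37, 0.30, 0.43 and 0.34, with the orientations overlapping. Ndufb4 and Ndufb10, also of the membrane arm, had their higher values with AngII in Cy3, at 0.41 and 0.42 for Ndufb4 and at 0.27 and 0.32 for Ndufb10, against 0.14 on both Cy5 arrays and 0.06 and 0.15.

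In 9 accessory subunits, 31% of them, the sign depended on the dye, where 21.7% of all features did so. Of the features with a mean log2 intensity of at least 12, 27.8% did so. Ndufc2, in the membrane arm, had 0.47 and 0.49 with AngII in Cy5 and -0.12 and -0.33 with AngII in Cy3, so that its mean of 0.13 lay between groups of arrays that did not overlap. Ndufc1, its neighbour there, had 0.23 and 0.20 against -0.57 and -0.64 and passed as lower at a mean of -0.20. Ndufa3, Ndufa7, Ndufb2, Ndufb6 and Ndufs6, with means of 0.12 to 0.14, were also above 0 on both Cy5 arrays and below 0 on both Cy3 arrays. Ndufa1, in the membrane arm, had 0.09 and 0.12 against -0.32 and -0.35 and passed as lower at a mean of -0.12, and Ndufb11 had 0.08 and 0.15 against -0.23 and -0.14 and did not pass (mean -0.03). A second probe of Ndufa7 had a mean of -0.19 where the brightest had 0.13, and the mean over its probes was -0.03. In the authors' deposited table Ndufa1, Ndufa3, Ndufb2, Ndufc2 and Ndufs6 were not called.

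The complex I assembly factors included the largest mean ratio of the set, save that Cox6a2 of complex IV was above it with Agilent's processed signals. Ndufaf3, which helps to assemble the quinone-reducing module, had 1.17 and 1.07 with AngII in Cy5 and 0.85 and 1.00 with AngII in Cy3 (mean 1.02 ± 0.03 SE, 2.03-fold, adjusted p = 1.79e-20 in limma). Ndufaf7, a mitochondrial methyltransferase, had 0.55, 0.59, 0.69 and 0.79 (mean 0.66, adjusted p = 5.84e-16 in limma). Both were far above 0 on every array, and another probe of Ndufaf7 gave a mean of 0.30. Ndufaf2 had 0.37 on both Cy5 arrays and 0.05 and -0.07 on the Cy3 arrays (mean 0.18), and Ndufaf6 had 0.13, 0.35, 0.11 and -0.06 (mean 0.14). Ndufaf4, the partner of Ndufaf3 in assembly, had 0.05, 0.04, -0.20 and -0.11 and did not pass (mean -0.06, adjusted p = 0.136 in limma). Another probe of Ndufaf4 had a mean of -0.60, and the mean over both probes was -0.33. Ndufaf1 had a mean of 0.02 and did not pass, and Ndufaf5 was not above background.

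Complex II, the succinate dehydrogenase, sits in both the electron transport chain and the citric acid cycle and has no mitochondrially encoded subunit. Sdhd, a membrane anchor, had 0.30 and 0.28 with AngII in Cy5 and 0.71 and 0.72 with AngII in Cy3 (mean 0.50 ± 0.03 SE, 1.42-fold, adjusted p = 1.42e-13 in limma). It rose on every array and, unlike most genes of the set, by more when AngII was in Cy3. Sdha, the flavoprotein that oxidises succinate, had 0.31, 0.43, 0.09 and 0.07 (mean 0.23). Sdhc, the other anchor, had 0.34 and 0.18 against -0.14 and -0.08 and did not pass (mean 0.07, adjusted p = 0.0521 in limma). Sdhb, the iron-sulfur subunit, had -0.14, -0.02, 0.06 and -0.10 and did not pass (mean -0.05, adjusted p = 0.19 in limma).

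**Figure D2:**
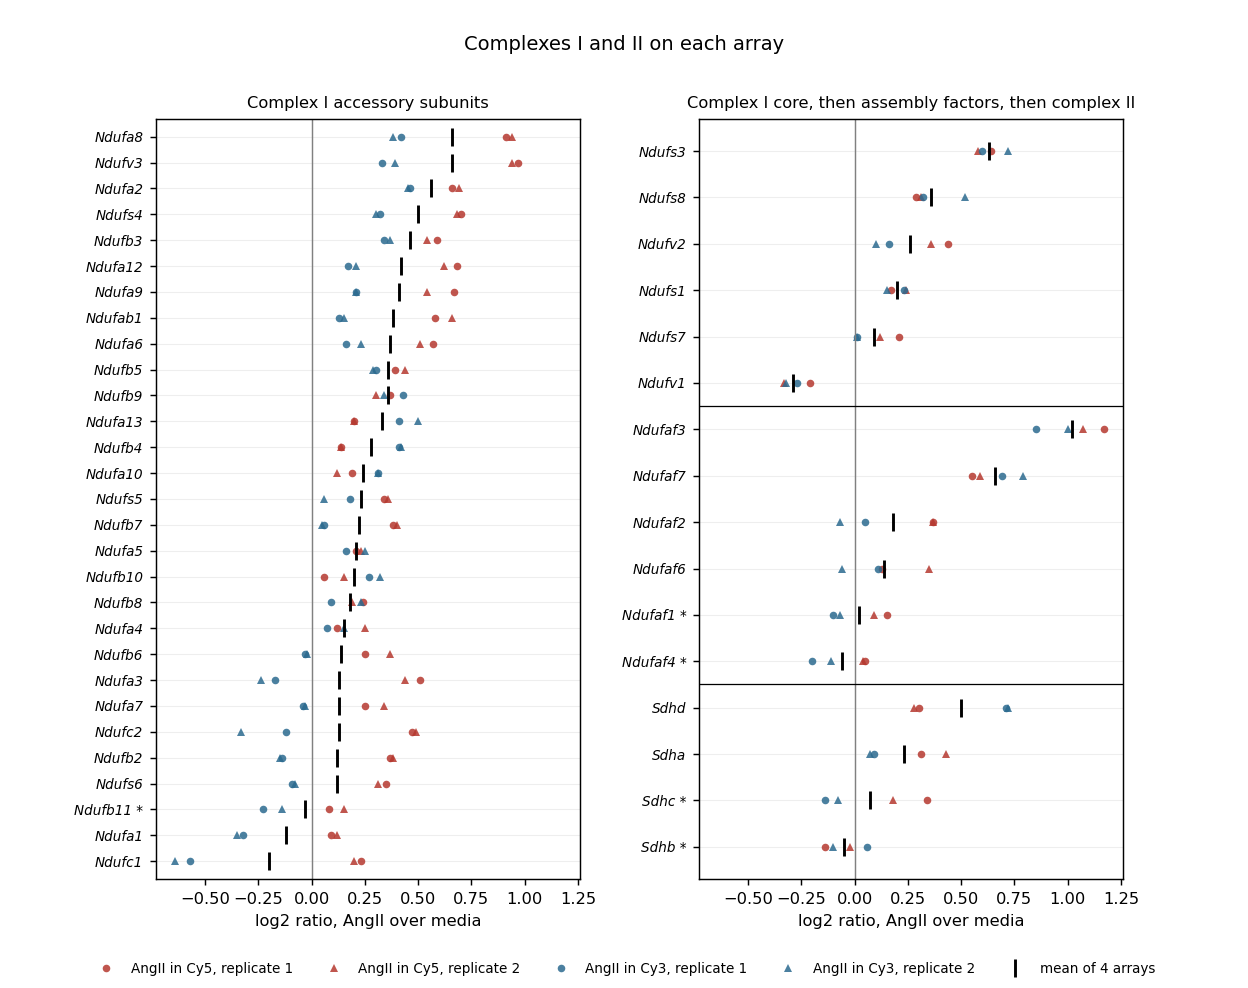
Log2 ratio of AngII over media for tested subunits of complexes I and II and complex I assembly factors, 1 row a gene, with a point for each array (red with AngII in Cy5, blue with AngII in Cy3, circle replicate 1, triangle replicate 2) and a black bar at the mean. Genes with an asterisk did not pass. Ndufs3 and Ndufaf3 keep their 4 points together far above 0, while Ndufc1 and Ndufc2 have red points above 0 and blue points below 0.

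Complex III moves electrons from coenzyme Q to cytochrome c. Both falls were alike on all arrays: Uqcrq, a small subunit next to cytochrome b, had -0.30, -0.34, -0.34 and -0.42 (mean -0.35 ± 0.03 SE, adjusted p = 4.11e-10 in limma), and Uqcrfs1, the Rieske iron-sulfur protein, had -0.30, -0.21, -0.30 and -0.23 (mean -0.26, adjusted p = 1.27e-07 in limma). Neither differed between dye orientations beyond the threshold. Uqcrb, a quinone-binding subunit, had 0.22, 0.10, 0.18 and 0.12 (mean 0.15, or 0.34 with Agilent's processed signals), and Uqcr10 had 0.31, 0.23, 0.02 and 0.01 (mean 0.14). The Uqcrb probe was dim, with a mean log2 intensity of 6.92.

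The other rises of complex III turned with the dye. Uqcrh, the hinge protein that contacts cytochrome c1, had 0.81 and 0.72 with AngII in Cy5 and -0.21 and -0.09 with AngII in Cy3. Its mean of 0.31 passed (adjusted p = 3.69e-09 in limma), yet no array with AngII in Cy3 showed a rise. A second probe of Uqcrh gave the same mean, 0.31, and ranged from -0.19 to 0.88. Uqcrc2 and Uqcrc1, the core proteins, had means of 0.16 and 0.12 with negative values on both Cy3 arrays. A second probe of Uqcrc1 had a mean of -0.01, and with its probes averaged the mean was 0.06 and the call was lost. Uqcr11 did not pass (mean -0.01).

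Complex IV, cytochrome c oxidase, has several nuclear subunits with tissue isoforms. Of the subunit forms best known from muscle or testis, Cox7a1, Cox6b2 and Cox6a2 rose, and Cox7b2, Cox8b and Cox8c were not above background. Cox7a1, the heart and muscle form of subunit VIIa, had 0.43, 0.58, 0.42 and 0.49 (mean 0.48 ± 0.04 SE, 1.39-fold, adjusted p = 1.14e-12 in limma). Cox6b2, the testis form of subunit VIb, had 0.75, 0.79, 0.30 and 0.18 (mean 0.50, adjusted p = 1.79e-13 in limma). Cox6a2, the heart and muscle form of subunit VIa, had 0.27, 0.18, 0.33 and 0.51 (mean 0.32), but was dim, well above background on 4 arrays with AngII and on 3 of 4 with media, and its mean was 1.30 with Agilent's processed signals. These rises were seen on every array. Of the 10 stromal markers 6 were higher and 2 lower, where 39.1% and 38.1% of all features were, with a median of 0.17. The largest rises among them were those of Acta2, a smooth muscle actin, and Cspg4, a pericyte proteoglycan (means 1.69 and 1.07). The 2 lower were Foxd1 and Col1a2, with means of -0.16 and -0.09. The part of stromal cells in the isoform values was not tested.

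The broadly expressed partners of these isoforms passed as lower, Cox6a1 under every alternative that gave a test and the others not. Cox6a1, the common form of subunit VIa, had -0.30, -0.43, -0.30 and -0.17 (mean -0.30 ± 0.03 SE, 1.23-fold, adjusted p = 6.13e-09 in limma), below 0 on every array, with a mean of -0.15 from Agilent's processed signals. Cox6b1, the common form of subunit VIb, had -0.10 and 0.05 with AngII in Cy5 and -0.62 and -0.67 with AngII in Cy3, so its mean of -0.33 came from the Cy3 arrays, and its call was lost with AngII in Cy5 alone and with the replicate block. Cox7a2, the common form of subunit VIIa, had 0.27 and 0.28 against -0.83 and -0.26, and its mean of -0.14 was -0.28 from replicate 1 and 0.01 from replicate 2. Its call was lost with a dye term over the 4 arrays, with processed signals, with median centring, with the replicate block and in the authors' deposited table. It is the gene of the set whose replicates lay farthest apart. Whether the ratio of one isoform differs from that of its partner was not tested.

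Cox6c, a small membrane subunit, fell steadily, with -0.22, -0.25, -0.32 and -0.24 and a mean of -0.26 (-0.45 with Agilent's processed signals). The Cox6c probe was dim, with a mean log2 intensity of 7.27. Cox7b and Cox8a, both small membrane subunits, rose with means of 0.34 and 0.26, from 0.53, 0.47, 0.19 and 0.18 for Cox7b and from 0.41, 0.46, 0.08 and 0.10 for Cox8a. Cox7a2l, which helps to form supercomplexes, had 0.15, 0.04, 0.17 and 0.14 (mean 0.13). Cox4i1, the common form of subunit IV, had 0.10, 0.09, 0.15 and -0.12 and did not pass (mean 0.05, adjusted p = 0.193 in limma). It did pass as higher with Agilent's processed signals (mean 0.17), with median centring (0.14) and in the authors' deposited table (0.13). Cox5a had -0.43 and -0.33 against 0.27 and 0.21, again with a sign set by the dye, and did not pass (mean -0.07, adjusted p = 0.0621 in limma). Cox5b did not pass (mean -0.05). Cox4i2, Cox7b2, Cox7c, Cox8b and Cox8c were not above background and were not tested.

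Complex V couples the proton gradient to ATP synthesis through a membrane ring, a central stalk and a catalytic head. Its membrane subunits e and g, which hold synthase dimers together, had the lowest ratios. Atp5k, subunit e, had -0.25 and -0.10 with AngII in Cy5 and -1.11 and -1.21 with AngII in Cy3 (mean -0.67 ± 0.03 SE, 1.59-fold, adjusted p = 2.65e-16 in limma). It was below 0 on every array, but the arrays of the 2 orientations differed by 0.98. Atp5l, subunit g, was at 0.00 and -0.01 with AngII in Cy5 and at -0.78 and -0.76 with AngII in Cy3, so that its mean of -0.39 came wholly from the Cy3 arrays. Atp5mpl, a small membrane subunit, fell on every array, with -0.34, -0.28, -0.07 and -0.07 and a mean of -0.19. Atp5j2, subunit f in the same membrane part, rose on every array, with 0.40, 0.33, 0.17 and 0.20 and a mean of 0.27. Atp5md, also known as DAPIT, had 0.52, 0.51, 0.06 and -0.02 (mean 0.27).

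The genes of the membrane ring differed among themselves. Atp5g1, Atp5g2 and Atp5g3 encode the same ring protein with different leader peptides. Atp5g1 had 0.51, 0.37, -0.02 and 0.00 (mean 0.21), and Atp5g2 had 0.29, 0.18, 0.14 and -0.04 (mean 0.15). Atp5g3 had 0.11, 0.09, -0.46 and -0.36 and passed as lower at a mean of -0.16, a call lost with median centring and in the authors' deposited table. All 3 were higher with AngII in Cy5 than in Cy3.

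In the catalytic head and stalks, Atp5a1, the alpha subunit, had -0.14, -0.20, -0.04 and 0.02 (mean -0.09, adjusted p = 0.0201 in limma). A second probe of Atp5a1 had a mean of -0.21. The Atp5a1 call was lost with Agilent's processed signals, with median centring, without the filter on dim probes and in the authors' deposited table. Atp5b, the catalytic beta subunit, had -0.23 and -0.31 against 0.39 and 0.36 (mean 0.05, adjusted p = 0.17 in limma). A second probe of Atp5b had a mean of -0.21, and the mean over both was -0.08. Atp5d, the delta subunit of the central stalk, had 0.00, -0.07, -0.48 and -0.47 (mean -0.26), and Atp5pb, of the peripheral stalk, had 0.14, 0.11, 0.22 and 0.15 (mean 0.15). Atp5c1, Atp5e, Atp5h, Atp5j and Atp5o did not pass, with means between -0.06 and 0.07. Among these, Atp5h and Atp5j had opposite signs in the 2 dye orientations, Atp5h below 0 and Atp5j above 0 with AngII in Cy5.

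**Figure D3:**
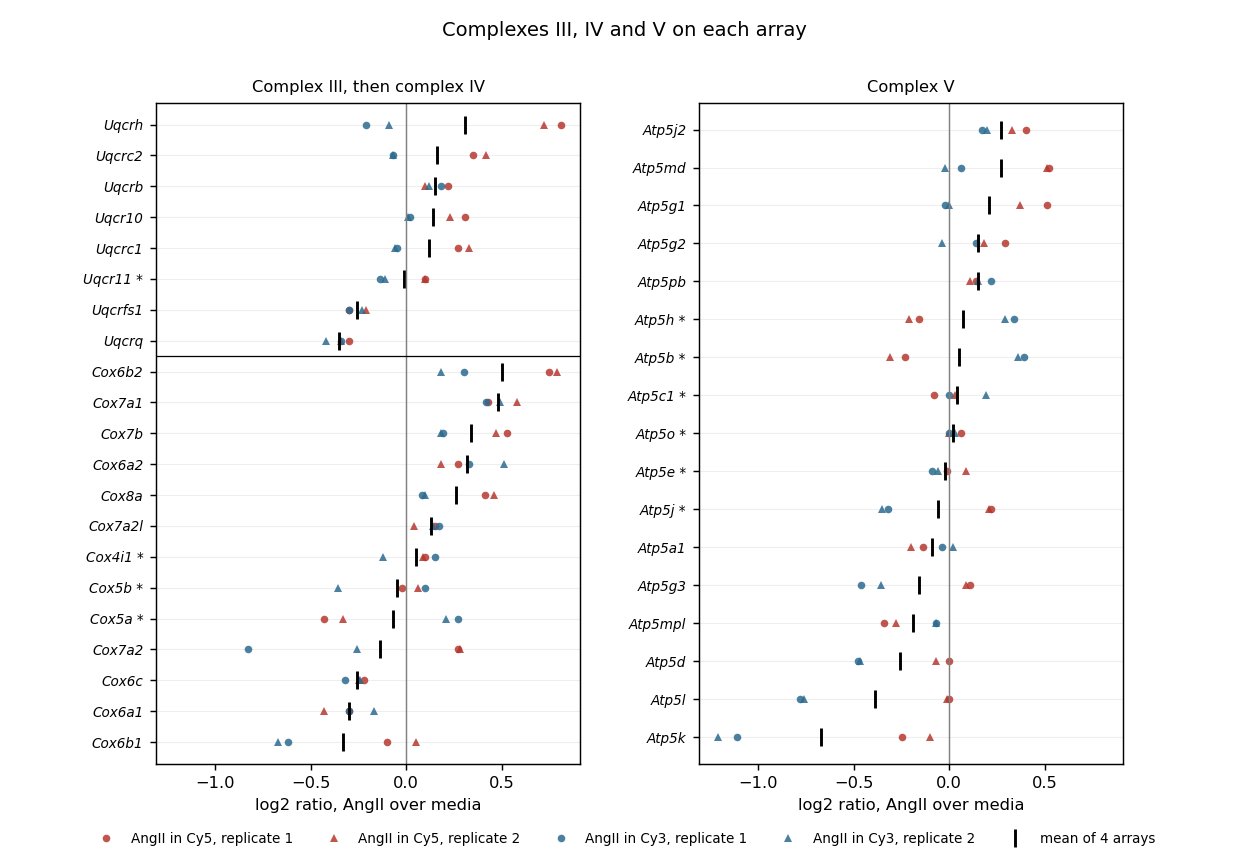
Log2 ratio of AngII over media for each tested subunit of complexes III, IV and V, drawn as for complex I, with an asterisk for genes that did not pass. The points of Uqcrq, Uqcrfs1, Cox6c and Cox7a1 lie together on 1 side of 0, while Uqcrh, Cox7a2, Atp5b and Atp5k are split by dye.

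Many genes had a ratio that differed with the dye that held AngII. A test of this difference passed for 45 genes with the larger ratio when AngII was in Cy5, where 35.4% of all features did so, and for 11 with the larger ratio in Cy3, where 21.2% of all features did so. In 23 genes, 27.4% of the set, both arrays of one orientation were above 0 and both of the other below 0, as in 21.7% of all features. The median ratio of the set was 0.23 with AngII in Cy5 and 0.04 with AngII in Cy3, against 0.04 and -0.03 over all features. By complex, the medians in the 2 orientations were 0.33 and 0.17 for complex I subunits, 0.27 and 0.03 for complex II, 0.21 and -0.10 for complex III, 0.10 and 0.09 for complex IV, and 0.03 and -0.01 for complex V. The median of complex III changed sign with the dye, and that of complex I did not. The widest differences were those of Atp5k (0.98), Uqcrh (0.92), Ndufc1 and Cox7a2 (both 0.82). Genes of the set are bright: 49 had a mean log2 intensity of at least 12. Of these, 30 were higher and 8 lower with a median of 0.13, while of the 1636 features this bright 38% were higher and 44.2% lower, with a median of -0.03. Opposite signs in the 2 orientations were seen in 32.7% of the 49 genes and in 27.8% of the features this bright. Under that intensity they were seen in 20% of the genes of the set and 21% of all features.

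**Figure D4:**
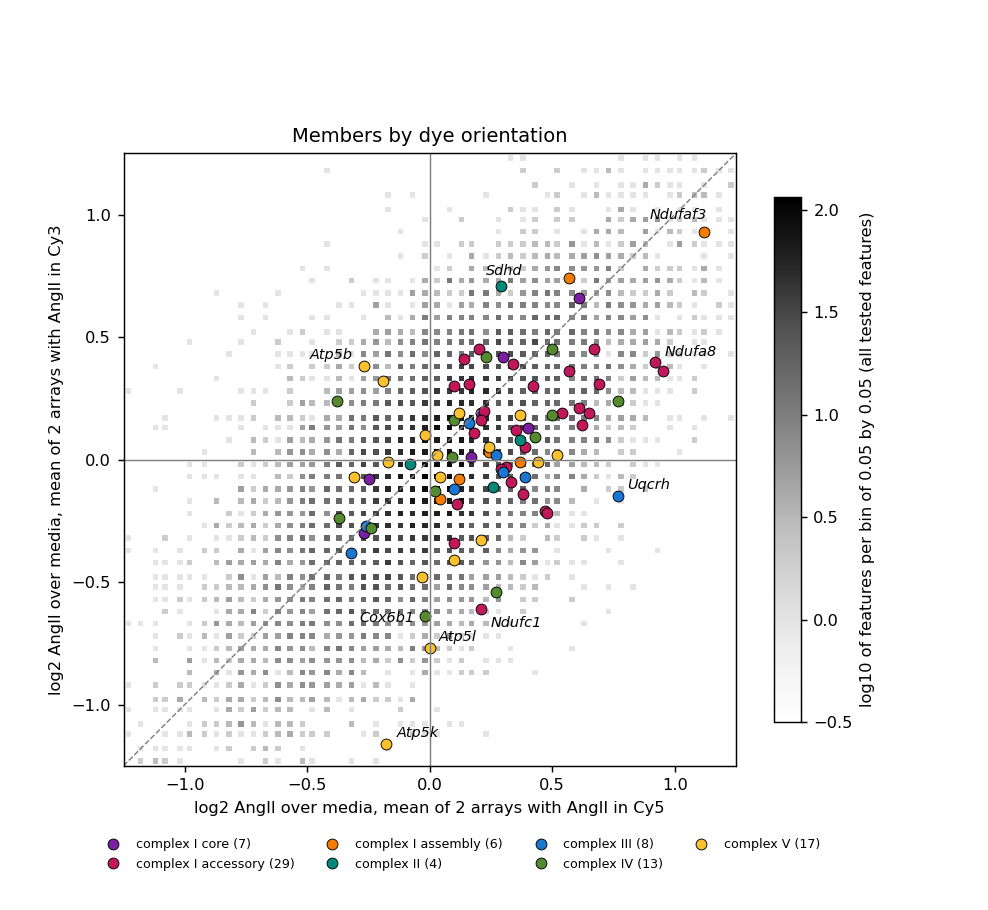
Each tested gene of the set by its mean log2 ratio on the 2 arrays with AngII in Cy5 (horizontal) and the 2 with AngII in Cy3 (vertical), coloured by complex, over all tested features in grey (darker for more features in a square of 0.05 by 0.05, features beyond the axes not drawn). Most genes lie to the right of 0 and below the dashed line of equal ratios, and Uqcrh and Ndufc1 lie at the lower right, where the orientations have opposite signs.

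Other genes that build or serve the complexes were read from lists of known factors. Of 32 tested assembly factors outside the symbol rule, 23 were higher and 7 lower, where 39.1% and 38.1% of all features were, with a median of 0.22. Tmem126a, a complex I assembly factor, had a mean of 0.74 and lay between 0.68 and 0.79 on all arrays. Sdhaf4, for complex II, had a mean of 0.64, Surf1, for complex IV, 0.57, and Tmem126b, for complex I, 0.49, all above 0 on every array. Sdhaf1, the other complex II factor with a large ratio, fell with a mean of -0.44.

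Of 13 tested genes for cytochrome c, cytochrome c1 and coenzyme Q synthesis, 7 were higher and 3 lower, where 39.1% and 38.1% of all features were, with a median of 0.12. Coq6, a hydroxylase of coenzyme Q synthesis, and Coq8b, a kinase-like protein of that pathway, rose with means of 0.34 and 0.27. Cyc1, the cytochrome c1 of complex III that no symbol in the rule catches, fell with a mean of -0.27 and was below 0 on every array, as were Uqcrq and Uqcrfs1 of the same complex. Coq10b fell with a mean of -0.27.

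Of 17 citric acid cycle and pyruvate dehydrogenase genes 7 were higher and 7 lower, shares near those of all features (39.1% and 38.1%), with a median of -0.01. Suclg1 and Suclg2, subunits of succinyl-CoA ligase, rose with means of 0.77 and 0.52, Fh1, the fumarase, with 0.57, and Idh3g, of isocitrate dehydrogenase, with 0.48. Of 4 genes for carriers, uncoupling and the ATPase inhibitor, Slc25a5, an ADP/ATP carrier, fell with a mean of -0.55 and Ucp2 rose with 0.38, while Slc25a4 and Atpif1 did not pass.

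Of 13 tested regulators of mitochondrial genes, 5 were higher and 4 lower, also near the shares of all features, with a median of 0.06. Ppargc1a, which encodes PGC-1 alpha, had the largest ratio, with a mean of 0.96 and values from 0.88 to 1.06. Tfam, which packages and transcribes mitochondrial DNA, rose with a mean of 0.26. Nrf1, whose protein binds the core shown above in the promoters of Ndufa8 and Atp5k, fell with a mean of -0.66, and Pprc1, another PGC-1 family coactivator, fell with -0.68. Each was of 1 sign on all 4 arrays, and no link between these ratios and those of the subunits was tested. The 13 genes of the mitochondrial genome were not analysed here.

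**Figure D5:**
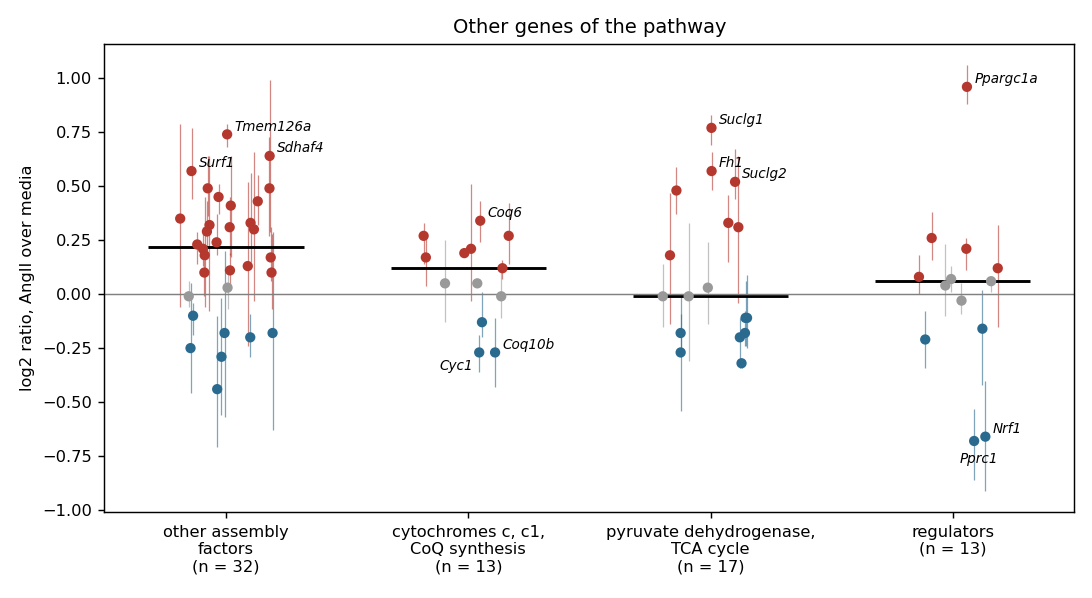
Log2 ratio of AngII over media in related gene lists, with 1 point a gene at its mean, a thin line from the lowest to the highest of the 4 arrays, red for higher, blue for lower and grey for not passed, and a black bar at each list's median. The medians are 0.22 for other assembly factors, 0.12 for cytochromes c and coenzyme Q synthesis, -0.01 for the citric acid cycle and 0.06 for regulators.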

How the data were processed

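Two-colour Agilent arrays compared AngII with media RNA of mouse ureteric buds. Per the file headers, spots were quantified by Feature Extraction 10.5.1.1, and the submitters' processing notes name limma with no version. As deposited, intensity is the median pixel signal of spot and local background, or Agilent's processed intensity, which the scanner software had corrected for background and dye. In the authors' deposited table each spot has a log2 ratio, an adjusted p-value and a call score of -1, 0 or 1, with the normalisation not given in the sources used here.

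The analysis used R 4.3.3 and limma 3.58.1: normexp (offset 50), loess within each array, outlier-flagged spots left out, spots of a probe averaged, arrays with AngII in Cy3 turned. No spot was saturated. Per channel, 19028 to 21922 of 41174 probes stood well above background. The 19373 probes that did so on all 4 arrays in the AngII channel or in the media channel were kept. The brightest probe stood for each gene. Arrays of a numbered pair were averaged, and the 2 resulting ratios were set against 0 with lmFit and eBayes, adjusted over 14995 features, at 0.05. Dye orientation was tested as a dye term over the 4 arrays. The number of arrays limits the precision.

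Symbols for 25097 probes came from unversioned accessions found in RefSeq's GRCm38.p6 gene table. The array's own annotation is of another build, so only RefSeq promoter coordinates are given. RefSeq lists pseudogenes of several of these genes, and capture of their transcripts by the probes was not tested. Members and lists were chosen with earlier results of these data known. Named were, per complex, the largest rises and falls with 1 sign on all 4 arrays, the widest dye differences, the core subunits of complexes I and II and fixed isoforms, and up to 4 genes of smallest p in each related list. A gene that this rule names is not reported here. Other genes were named after their values were seen. Alternatives were other background, normalisation, filter and probe rules, single orientations, left-out replicates, a block and the deposited table.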

Additional observations from a re-analysis of the deposited data

Results flagged for a closer look

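The ratio of AngII over media differed between the dye orientations in many genes of the set, by a dye term in limma. It was larger with AngII in Cy5 for 45 of the 84 genes, among them Atp5k, Uqcrh, Ndufc1 and Cox7a2, where 35.4% of all features passed in that direction. It was larger with AngII in Cy3 for 11 of the 84, among them Atp5b, Cox5a and Sdhd, where 21.2% of all features passed in that direction. In 23 genes, 27.4% of the set, both arrays of one orientation had one sign and both of the other the opposite sign. Of all features 21.7% did so, and of the features with a mean log2 intensity of at least 12, as many genes of the set have, 27.8% did so. Uqcrh, Ndufc1 and Atp5j were among the 23 genes.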

How the results depend on the processing

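The median ratio of the set stayed above 0 under every alternative run: 0.17 with Agilent's processed signals, 0.22 with median centring, 0.23 with AngII in Cy5 alone, 0.04 with AngII in Cy3 alone, 0.16 in the authors' deposited table, and 0.14 to 0.16 with a replicate left out. Of the genes at 1.5-fold or more (6 as reported) there were 11 on the Cy5 arrays alone and 8 on the Cy3 arrays alone. With the replicate block on the 4 arrays, which leaves the dye difference in the residual spread, 15 of the 84 genes were higher and 5 lower. Of all features 16.3% were higher and 14.7% lower in that fit, so the share of higher genes was near that of all features. The numbers gave no sign of pairing beyond array noise. Of the 69 called genes 58 kept their call in each alternative that tested them, the block and the single orientations apart (a left-out replicate gives no test, and the stricter filter removed Cox6a2). Omitting background correction changed no call. With probes of a gene averaged, Ndufa7 turned to -0.03 and Atp5b to -0.08. With AngII in Cy5 alone Ndufa1 turned to 0.10, Ndufc1 to 0.21, Cox7a2 to 0.27, Atp5h to -0.19, Atp5b to -0.27, Atp5j to 0.21 and Atp5g3 to 0.10. With AngII in Cy3 alone Ndufb6 turned to -0.03, Ndufa3 to -0.21, Ndufa7 to -0.04, Ndufc2 to -0.22, Ndufb2 to -0.14, Ndufs6 to -0.09, Ndufaf2 to -0.01, Sdhc to -0.11, Uqcrh to -0.15, Uqcrc2 to -0.07, Uqcrc1 to -0.05, Cox5a to 0.24 and Atp5g1 to -0.01. With a replicate left out Cox7a2 ranged from -0.28 to 0.01. The causes were not tested.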
